A study of Mus musculus with 6 samples.

Results

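Gene expression of 9 complement genes was followed in the epididymal white adipose tissue (WAT) of adipocyte-specific *Armc5* KO mice and their controls. The genes were chosen by symbol as components of the complement system that adipocytes, macrophages or stromal cells of fat make: *C1qa*, *C1qb*, *C1qc*, *C2*, *C3*, *C4b*, *Cfb*, *Cfd* and *C3ar1*. All 9 were found, among 24346 genes measured by RNA-seq. The 3 AdArmc5 KO carried *Armc5* alleles with LoxP sites and *Adipoq-Cre*, a transgene that drives Cre from the adiponectin promoter and so deletes in adipocytes, while macrophages, stromal cells and endothelium of the same fat keep the gene. The 3 Armc5 flox carried the same floxed alleles without Cre. The floxed line derived from C57BL/6N *Armc5* mutant mice after removal of the *lacZ* and neomycin resistance cassettes with *CAG-FLPe*, and littermates were compared. All mice were 24 weeks of age, were fasted for 24 h and were refed for 6 h. The sources used here do not say whether a library held the fat of a single mouse, and p-values measure the spread between these libraries.

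Complement is a cascade of plasma proteins that marks particles for removal. In the classical pathway C1q recognizes a target and its proteases C1r and C1s cut C4 and C2. In the alternative pathway factor D cuts factor B once factor B is bound to C3. Both pathways end in convertases that cut C3, whose small fragment C3a acts on the receptor encoded by *C3ar1*. Most plasma complement comes from the liver, but factor D is a product of adipocytes, known there as adipsin, and C1q is a product of macrophages.

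*Armc5* was expressed at 3.66 and 4.48 FPKM in AdArmc5 KO replicates 1 and 2 and at 5.82 FPKM in the library labelled AdArmc5 KO replicate 3, against 5.12, 5.66 and 5.58 FPKM in Armc5 flox replicates 1, 2 and 3. FPKM divides the fragments of a gene by its exon length and by the size of the library, so levels of different genes can be set side by side. In the library labelled AdArmc5 KO replicate 3 the level of *Armc5* therefore goes against the label. The mean log2(FPKM + 1) of 15 listed interferon response genes went with the label. It was 4.35 in that library and 4.22 and 3.76 in AdArmc5 KO replicates 1 and 2, against 2.87 to 3.10 in Armc5 flox. The list of interferon response genes was written with earlier results of these data known, so its level cannot decide whether the label is right. The reason for the level of *Armc5* was not tested. *Akr1b7*, which is abundant in vas deferens, stood at 3122 FPKM in that library, against at most 17.4 FPKM in the others. *Foxj1*, a transcription factor of ciliated cells, was at 62.4 FPKM in AdArmc5 KO replicate 2 and at 76.0 FPKM in Armc5 flox replicate 1 and at most at 0.708 FPKM elsewhere. The libraries labelled AdArmc5 KO held 25320771 to 38311529 fragments and those of Armc5 flox 29027308 to 30693906. All 12 adipocyte markers on a list passed the filter on low values, 6 above and 6 below 0, and their summed level was 29766 to 48568 FPKM in the libraries labelled AdArmc5 KO and 33616 to 55022 FPKM in Armc5 flox.

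Of the 9 complement genes, 7 had a log2 fold change above 0 (43.5% of the 12670 genes tested did) and 2 had one below 0 (56.5% did). The median was 0.48, against −0.03 for all genes tested. With limma on log2(FPKM + 1), 0 of the 9 reached an adjusted p under 0.05 (0% of all genes tested) and 0 reached an unadjusted p under 0.05 (425 genes, 3.35% of those tested, did). In 0 of the 9 were the genotypes apart, that is, with every library of a genotype above every library of the other (8.8% of the genes tested, 3.54% with AdArmc5 KO higher and 5.26% with AdArmc5 KO lower). None of the 9 genes thus passed a threshold, of which the adjusted one was passed by none of the 12670 genes.

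**Figure D1:**
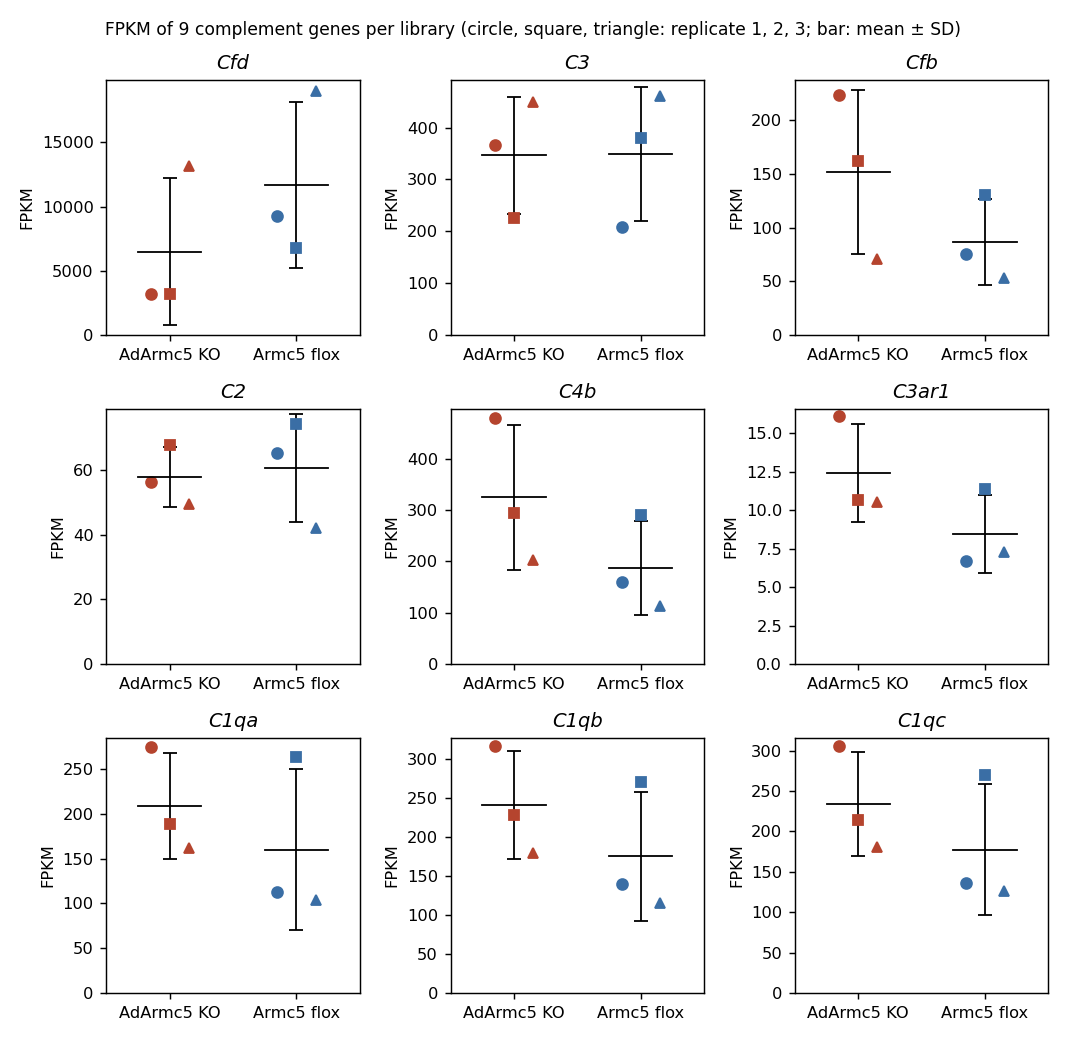
FPKM (linear axes from 0) of each of the 9 complement genes in the 3 libraries labelled AdArmc5 KO (left, red) and the 3 Armc5 flox libraries (right, blue). Circles, squares and triangles are replicates 1, 2 and 3, and bars are the mean and SD. The genotypes overlapped for all 9 genes, and Cfd had 3191 and 3185 FPKM in replicates 1 and 2 of AdArmc5 KO but 13129.8 FPKM in the library labelled replicate 3.

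*Cfd* (NCBI Gene 11537, mm10 chr10:79890853-79892655, plus strand), which encodes factor D, was the most abundant of the 9 genes in every library. It had 3191 and 3185 FPKM in AdArmc5 KO replicates 1 and 2 and 13129.8 FPKM in the library labelled AdArmc5 KO replicate 3, against 9273, 6792 and 18968 FPKM in Armc5 flox replicates 1, 2 and 3. AdArmc5 KO replicates 1 and 2 thus lay below every Armc5 flox library, whereas the library labelled AdArmc5 KO replicate 3 was above Armc5 flox replicates 1 and 2. By FPKM, *Cfd* was the gene at rank 8 and rank 5 of all genes in AdArmc5 KO replicates 1 and 2 and rank 2 in the library labelled replicate 3, against ranks 2, 3 and 1 in Armc5 flox replicates 1, 2 and 3. The means were 6502 ± 5740 FPKM in the libraries labelled AdArmc5 KO and 11678 ± 6434 FPKM in Armc5 flox (SD, n = 3 each). The log2 fold change was −1.05 (standard error 0.70, 95% interval −2.75 to 0.64, adjusted p = 0.98 from limma). It was −1.73 without the library labelled AdArmc5 KO replicate 3 (unadjusted p = 0.023 and adjusted p = 0.87 from limma). Without Armc5 flox replicate 3 it was −0.63 (unadjusted p = 0.44 from limma). The adjusted p of *Cfd* from limma lay between 0.79 and 1 over the alternatives.

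The level of *Cfd* was set beside 12 adipocyte markers, which themselves differed in their spread. The highest library was 5.96 times the lowest for *Cfd*, 11.4 times for *Lep*, which encodes leptin, 4.29 times for *Slc2a4*, the insulin-responsive glucose transporter, and 1.49 to 3.19 times for the other markers. Log2 fold changes were −0.74 for *Cidec*, −0.63 for *Pparg* and −0.58 for *Slc2a4*, in the direction of *Cfd*, and 0.59 for *Lep* and 0.16 for *Adipoq*, in the other. *Adipoq*, which encodes adiponectin, had 4219 and 1951 FPKM in AdArmc5 KO replicates 1 and 2 and 2876 FPKM in the library labelled replicate 3, against 1896, 3130 and 2833 FPKM in Armc5 flox replicates 1, 2 and 3. The ratio of *Cfd* to *Adipoq* was 0.756 and 1.63 in AdArmc5 KO replicates 1 and 2 and 4.56 in the library labelled replicate 3, against 4.89, 2.17 and 6.70 in Armc5 flox replicates 1, 2 and 3. Relative to the mean of the 12 adipocyte markers, log2(FPKM + 1) of *Cfd* was 1.20 and 1.78 higher in AdArmc5 KO replicates 1 and 2 and 3.49 higher in the library labelled replicate 3. In Armc5 flox replicates 1, 2 and 3 it was 3.31, 2.10 and 3.87 higher. The range over the 6 libraries was 2.66 after this subtraction and 2.57 before it, so that *Cfd* varied as much relative to the mean of these markers as on its own. In bulk tissue, fewer cells of a type and less RNA per cell cannot be told apart.

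*C3* (NCBI Gene 12266, mm10 chr17:57203967-57228136, minus strand), the component on which all pathways converge, was at a similar mean in both genotypes. It had 366 and 225 FPKM in AdArmc5 KO replicates 1 and 2 and 449 FPKM in the library labelled AdArmc5 KO replicate 3, against 208, 381 and 460 FPKM in Armc5 flox replicates 1, 2 and 3. The libraries with *Foxj1*, AdArmc5 KO replicate 2 and Armc5 flox replicate 1, were the lowest for *C3*. They also had the lowest mean log2(FPKM + 1) of the 12 adipocyte markers, at 9.86 and 9.87, against 10.19 to 10.63 elsewhere. Relative to that mean *C3* spanned 0.79 over the libraries, against 1.14 before the subtraction. The parts of ciliated epithelium and of adipocytes in this were not tested. The means were 347 ± 113 FPKM in the libraries labelled AdArmc5 KO and 350 ± 129 FPKM in Armc5 flox (SD, n = 3 each), and the log2 fold change was 0.01 (standard error 0.39, 95% interval −0.92 to 0.94, adjusted p = 0.999 from limma). The sign depended on single libraries, at −0.33 once Armc5 flox replicate 1 was left out and at 0.29 once AdArmc5 KO replicate 2 was. The width of this interval means that these libraries do not show *C3* to be alike in the genotypes.

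*Cfb*, which encodes factor B, the substrate of factor D, and *C4b*, which encodes C4, had the largest positive log2 fold changes of the 9 genes. *Cfb* (NCBI Gene 14962, mm10 chr17:34856374-34862514, minus strand) had 223 and 162 FPKM in AdArmc5 KO replicates 1 and 2 and 71.1 FPKM in the library labelled AdArmc5 KO replicate 3, against 75.3, 131 and 53.0 FPKM in Armc5 flox replicates 1, 2 and 3. AdArmc5 KO replicates 1 and 2 were the highest libraries and Armc5 flox replicate 3 the lowest, and the library labelled AdArmc5 KO replicate 3 lay among Armc5 flox. The log2 fold change of *Cfb* was 0.76 (standard error 0.50, 95% interval −0.46 to 1.97, adjusted p = 0.98 from limma). Left out in turn, the library labelled AdArmc5 KO replicate 3 gave 1.23, AdArmc5 KO replicate 1 gave 0.41 and Armc5 flox replicate 3 gave 0.46.

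*C4b* (NCBI Gene 12268, mm10 chr17:34728139-34743902, minus strand) had 479 and 294 FPKM in AdArmc5 KO replicates 1 and 2 and 202 FPKM in the library labelled AdArmc5 KO replicate 3, against 159, 289.7 and 113 FPKM in Armc5 flox replicates 1, 2 and 3. The libraries labelled AdArmc5 KO overlapped Armc5 flox through Armc5 flox replicate 2 alone. The log2 fold change was 0.81 (standard error 0.44, 95% interval −0.26 to 1.88, adjusted p = 0.98 from limma). Leaving out Armc5 flox replicate 2 gave 1.18 and leaving out AdArmc5 KO replicate 1 gave 0.49. *C4a*, a close paralog on the same chromosome, was at 0.186 to 0.390 FPKM in the libraries labelled AdArmc5 KO and 0.206 to 0.331 FPKM in Armc5 flox, so that the levels of *C4b* and *C4a* are uncertain as far as their reads were shared.

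*C2*, the partner of C4 in the classical convertase, had nearly the same mean in both genotypes. *C2* (NCBI Gene 12263, mm10 chr17:34862602-34882100, minus strand) had 56.4 and 67.8 FPKM in AdArmc5 KO replicates 1 and 2 and 49.5 FPKM in the library labelled AdArmc5 KO replicate 3, against 65.4, 74.5 and 42.2 FPKM in Armc5 flox replicates 1, 2 and 3. Its log2 fold change was −0.04 (standard error 0.24, 95% interval −0.63 to 0.55, adjusted p = 0.999 from limma). *C2* and *Cfb* lie on the same strand with 87 bases between them, yet their ratio was not constant. *Cfb* was 3.96 and 2.39 times *C2* by FPKM in AdArmc5 KO replicates 1 and 2 and 1.44 times in the library labelled replicate 3, against 1.15, 1.76 and 1.26 times in Armc5 flox replicates 1, 2 and 3. The highest library was 4.21 times the lowest for *Cfb* and 4.23 times for *C4b*, against 1.77 times for *C2*.

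*Cfd* and *Cfb*, the enzyme and substrate of the same step, ran in nearly opposite orders over the libraries. From the highest to the lowest, *Cfd* ordered them as Armc5 flox replicate 3, the library labelled AdArmc5 KO replicate 3, Armc5 flox replicates 1 and 2 and AdArmc5 KO replicates 1 and 2. *Cfb* ran in the reverse of this order except that AdArmc5 KO replicate 1 was above replicate 2. The ratio of *Cfd* to *Cfb* was 14.3 and 19.7 in AdArmc5 KO replicates 1 and 2 and 185 in the library labelled replicate 3, against 123, 51.9 and 358 in Armc5 flox replicates 1, 2 and 3. *Cfd* ran against other members too. Pearson's r of log2(FPKM + 1) with *Cfd* was −0.96 for *Cfb*, −0.89 for *C4b* and −0.74 to −0.83 for the C1q genes. The order is a description of 6 libraries and was not tested.

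**Figure D2:**
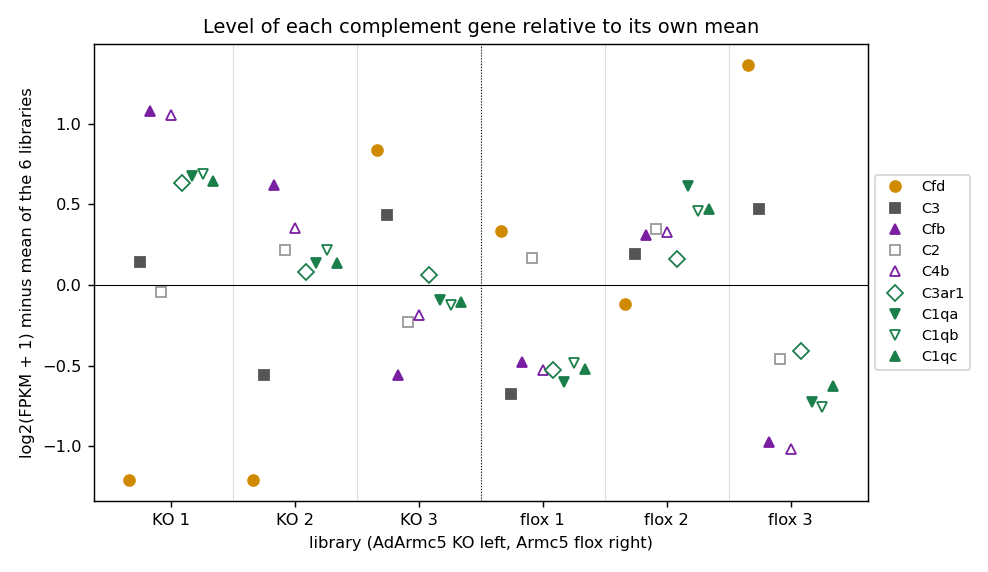
Log2(FPKM + 1) of each of the 9 genes minus its own mean over the 6 libraries, with the libraries labelled AdArmc5 KO left and Armc5 flox right of the dotted line. Each symbol is a gene. Cfd stood opposite to Cfb and C4b in AdArmc5 KO replicates 1 and 2 and in Armc5 flox replicate 3, where the Cfd to Cfb ratio was 14.3, 19.7 and 358.

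The 3 chains of C1q, *C1qa*, *C1qb* and *C1qc*, assemble in equal numbers into the recognition protein of the classical pathway and lie next to each other on the minus strand of chromosome 4. *C1qa* (NCBI Gene 12259, mm10 chr4:136895916-136898844) had 275 and 189 FPKM in AdArmc5 KO replicates 1 and 2 and 161 FPKM in the library labelled AdArmc5 KO replicate 3, against 113, 263 and 104 FPKM in Armc5 flox replicates 1, 2 and 3. *C1qb* (NCBI Gene 12260, mm10 chr4:136880126-136886200) had 316 and 228 FPKM in AdArmc5 KO replicates 1 and 2 and 179 FPKM in the library labelled replicate 3, against 139.7, 269.6 and 115 FPKM in Armc5 flox replicates 1, 2 and 3. *C1qc* (NCBI Gene 12262, mm10 chr4:136889801-136892936) had 306 and 214 FPKM in AdArmc5 KO replicates 1 and 2 and 181 FPKM in the library labelled replicate 3, against 136, 270.3 and 126 FPKM in Armc5 flox replicates 1, 2 and 3. All 3 genes ordered the libraries in the same way, with AdArmc5 KO replicate 1 first and Armc5 flox replicate 2 next, and Armc5 flox replicates 1 and 3 last. Armc5 flox replicate 2 was the control library that overlapped the libraries labelled AdArmc5 KO.

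The log2 fold change was 0.48 for *C1qa* (standard error 0.40), 0.52 for *C1qb* (standard error 0.37) and 0.45 for *C1qc* (standard error 0.35), and the adjusted p from limma was 0.98 for all 3. Without Armc5 flox replicate 2 they were 0.90, 0.88 and 0.80 (unadjusted p = 0.018, 0.025 and 0.027 and adjusted p = 0.81 from limma). Without Armc5 flox replicate 3 they were 0.24, 0.27 and 0.25 (unadjusted p = 0.61, 0.51 and 0.54 from limma). The adjusted p of the 3 genes from limma lay between 0.81 and 1 over the alternatives. The proportions of the chains were steadier than their levels. The summed FPKM of the 3 genes was 896 and 631 in AdArmc5 KO replicates 1 and 2 and 521 in the library labelled replicate 3, against 388, 803 and 345 in Armc5 flox replicates 1, 2 and 3. Of this sum, *C1qa* took 29.95% to 30.9% in the libraries labelled AdArmc5 KO and 29.04% to 32.8% in Armc5 flox. *C1qb* took 34.3% to 36.1% in the libraries labelled AdArmc5 KO and 33.4% to 36.0% in Armc5 flox, and *C1qc* 33.96% to 34.7% in the libraries labelled AdArmc5 KO and 33.6% to 36.6% in Armc5 flox.

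Macrophages are the main source of C1q, and the mean log2(FPKM + 1) of their markers followed a similar order over the libraries. Of 14 listed macrophage markers, complement genes not included, 14 were tested, 13 had a log2 fold change above 0 (43.5% of all genes) and 3 had an unadjusted p under 0.05 as higher in the libraries labelled AdArmc5 KO (2.18% of all genes), with 0 at an adjusted p under 0.05 by limma. These were *Cd68*, *Fcgr1* and *Aif1*, a lysosomal protein, an IgG receptor and an actin-binding protein of macrophages. In these 3 every library labelled AdArmc5 KO lay above every Armc5 flox library (3.54% of all genes), unlike in the C1q genes. *Lyz2* and *Csf1r*, the most abundant markers beside *Cd68*, had log2 fold changes of 0.16 and 0.21. *Cd14* was the marker below 0, at −0.47 (unadjusted p = 0.10 from limma). The summed level of all 14 markers was 880 to 1506 FPKM in the libraries labelled AdArmc5 KO and 723 to 1300 FPKM in Armc5 flox, and 0 markers were at 0 in all libraries. Relative to the mean of these markers, log2(FPKM + 1) of *C1qb* was 3.22 and 3.12 higher in AdArmc5 KO replicates 1 and 2 and 2.79 higher in the library labelled replicate 3, against 2.70, 3.29 and 2.58 in Armc5 flox replicates 1, 2 and 3. Its range over the 6 libraries was 0.71 after this subtraction, against 1.45 before it. For *C1qa* the range was 0.87 after it and 1.40 before it, and for *C1qc* 0.64 and 1.27. With the markers subtracted, the group means of *C1qa*, *C1qb* and *C1qc* differed by 0.14, 0.18 and 0.11 on the log2 scale. These differences are smaller than the SD of the libraries in either genotype. The part of macrophage number in the C1q levels was not tested.

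The promoters of *C1qb* and *C1qc* are shown because these neighbouring genes followed each other in every library. The sequences are those of RefSeq on GRCm38.p6 (mm10), from 250 bases before to 50 bases after the annotated start, 5′ to 3′ on the strand of the gene. Capitals mark GAGGAA or its reverse complement, letters that PU.1, a transcription factor of macrophages, can bind.
*C1qb*, chr4:136886151-136886450, minus strand: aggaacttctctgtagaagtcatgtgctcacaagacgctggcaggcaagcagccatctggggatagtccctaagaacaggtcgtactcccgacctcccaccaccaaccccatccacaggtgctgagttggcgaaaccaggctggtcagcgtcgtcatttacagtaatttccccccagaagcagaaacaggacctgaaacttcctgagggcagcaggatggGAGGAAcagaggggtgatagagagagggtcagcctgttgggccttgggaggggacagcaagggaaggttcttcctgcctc
*C1qc*, chr4:136892865-136893164, minus strand: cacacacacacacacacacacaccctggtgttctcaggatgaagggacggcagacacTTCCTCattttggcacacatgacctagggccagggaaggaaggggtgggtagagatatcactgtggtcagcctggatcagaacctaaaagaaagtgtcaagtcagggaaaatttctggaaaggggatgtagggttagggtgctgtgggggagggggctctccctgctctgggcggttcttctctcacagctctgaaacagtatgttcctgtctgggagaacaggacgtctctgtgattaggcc
The match began at position −30 of *C1qb* on its own strand and at position −193 of *C1qc* on the other strand, counted from the start of each promoter entry. For *C1qc* that start lies inside the gene coordinates given above rather than at their upper end. GAGGAA was found on either strand in 28.3% of 32851 promoters of this length, so a match is frequent, and a match is no evidence of binding. An interferon response element, searched on both strands as GAAA, any 2 bases and GAAA again, was found in neither promoter and in 3.44% of all promoters. Promoter sequences were at hand for 5 of the 9 genes, which left *C1qa*, *C2*, *C4b* and *Cfb* unmatched.

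The promoter of *C3* is shown beside these for contrast, since *C3* did not follow the C1q genes. Capitals first mark TTGCNNAA, which C/EBP transcription factors of adipocytes and hepatocytes can bind. The capitals nearer to the end mark TATAAA, the letters of a TATA box.
*C3*, chr17:57228087-57228386, minus strand: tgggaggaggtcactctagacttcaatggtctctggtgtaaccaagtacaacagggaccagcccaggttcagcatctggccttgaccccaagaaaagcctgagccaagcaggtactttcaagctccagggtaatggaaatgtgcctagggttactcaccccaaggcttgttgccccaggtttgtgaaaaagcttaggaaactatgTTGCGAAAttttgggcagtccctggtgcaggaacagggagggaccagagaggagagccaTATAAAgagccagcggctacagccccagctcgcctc
The C/EBP match began at position −45, before the annotated start, and the TATAAA match at position 15, after it. Whether these letters act as a TATA box was not tested. On either strand the C/EBP letters were found in 10.8% and TATAAA in 13.6% of all promoters, and neither was found in the promoters of *C1qb*, *C1qc* and *Cfd*. The promoter of *C3ar1* held TATAAA at position −235 and no C/EBP match.

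*C3ar1* (NCBI Gene 12267, mm10 chr6:122847140-122856157, minus strand), the receptor for C3a on macrophages, was the lowest of the 9 genes and had the smallest unadjusted p of them. It had 16.1 and 10.7 FPKM in AdArmc5 KO replicates 1 and 2 and 10.5 FPKM in the library labelled AdArmc5 KO replicate 3, against 6.67, 11.3 and 7.30 FPKM in Armc5 flox replicates 1, 2 and 3. Only Armc5 flox replicate 2 reached the libraries labelled AdArmc5 KO. The log2 fold change was 0.52 (standard error 0.25, 95% interval −0.08 to 1.11, unadjusted p = 0.079 and adjusted p = 0.98 from limma). It was 0.73 with Armc5 flox replicate 2 left out (unadjusted p = 0.020 and adjusted p = 0.81 from limma). With AdArmc5 KO replicate 1 left out it was 0.33 (unadjusted p = 0.23 from limma). The adjusted p of *C3ar1* from limma lay between 0.79 and 1 over the alternatives. Relative to macrophage markers the range of *C3ar1* was 0.50 on the log2 scale, against 1.16 before the subtraction. The difference between the group means was 0.18 after it, with an SD of 0.10 in the libraries labelled AdArmc5 KO and 0.18 in Armc5 flox. The lowest library held about 813 fragments of this gene.

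**Figure D3:**
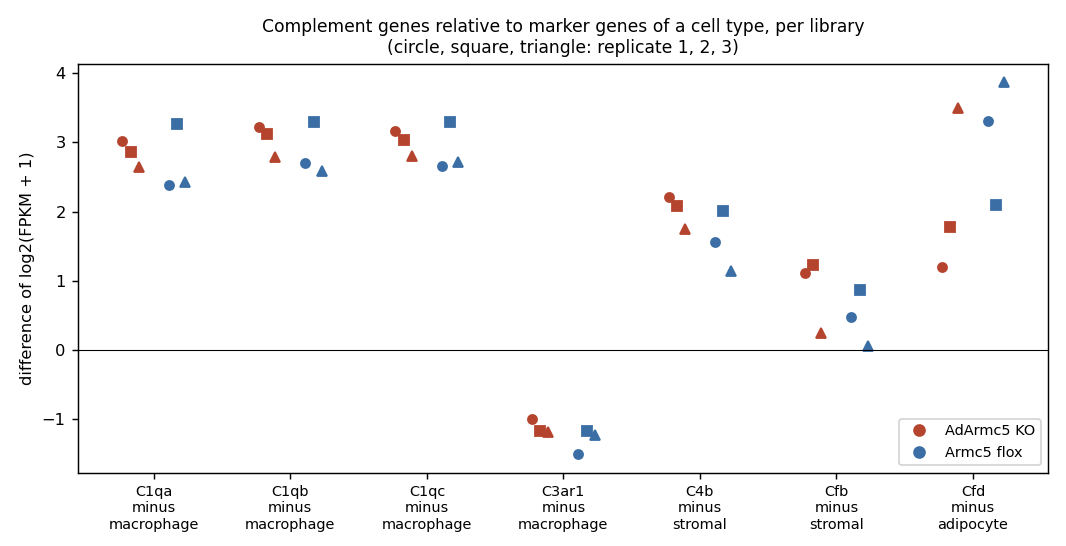
Log2(FPKM + 1) of complement genes minus the mean over marker genes of a cell type (macrophage, stromal progenitor or adipocyte), per library, with the libraries labelled AdArmc5 KO in red and left of Armc5 flox in blue. Circles, squares and triangles are replicates 1, 2 and 3. The 6 libraries spanned 0.64 to 0.87 for the C1q genes relative to macrophage markers and 2.66 for Cfd relative to adipocyte markers.

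Stromal progenitors are known to express C3, C4 and factor B, and the mean of their markers followed a similar order to *C4b* and *Cfb*. Pearson's r of log2(FPKM + 1) with this mean was 0.96 for *C4b* and 0.93 for *Cfb*. With the C1q genes r was 0.94 to 0.98 for *C4b* and 0.88 to 0.93 for *Cfb*, so the pattern was not particular to stromal markers. Of 12 listed stromal progenitor markers, 12 were tested and 10 had a log2 fold change above 0 (43.5% of all genes). *Dcn*, the most abundant of them, and *Pdgfra* were below 0, at −0.09 and −0.06. *Lum*, *Col1a1* and *Col1a2* had an unadjusted p under 0.05 by limma as higher in the libraries labelled AdArmc5 KO (2.18% of all genes). These encode lumican and chains of collagen I, and 0 markers reached an adjusted p under 0.05 by limma. The summed level of all 12 was 1753 to 2137 FPKM in the libraries labelled AdArmc5 KO and 1541 to 1695 FPKM in Armc5 flox, which did not overlap. Their mean log2(FPKM + 1), in which every marker weighs the same, did overlap, at 5.92 to 6.70 in the libraries labelled AdArmc5 KO and 5.69 to 6.18 in Armc5 flox. Relative to the mean of these markers, *C4b* spanned 1.07 over the libraries on the log2 scale, against 2.07 before the subtraction, and *Cfb* spanned 1.16, against 2.05. *C3* and *C2* went the other way, spanning 1.46 and 1.14 after the subtraction, against 1.14 and 0.81 before it. The difference between the group means was 0.45 for *C4b* and 0.39 for *Cfb* after the subtraction. The SD of *C4b* was then 0.24 in the libraries labelled AdArmc5 KO and 0.43 in Armc5 flox, and that of *Cfb* 0.53 and 0.40. The part of stromal cells in these values was not tested.

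Interferons are known to induce *Cfb* and *C4b* in many cells, and 15 of 15 listed interferon response genes lay above 0 on the log2 scale (43.5% of all genes did) with a median of 1.09, 13 of them with an unadjusted p under 0.05 (2.18% of all genes were higher at this p) and 0 with an adjusted p under 0.05 by limma. Their mean log2(FPKM + 1) was 4.22 and 3.76 in AdArmc5 KO replicates 1 and 2 and 4.35 in the library labelled AdArmc5 KO replicate 3, against 2.87, 3.10 and 2.99 in Armc5 flox replicates 1, 2 and 3. The library with the highest mean of these genes, labelled AdArmc5 KO replicate 3, had the lowest *Cfb* and *C4b* of its group, at 71.1 and 202 FPKM. Among Armc5 flox, replicate 2 had the highest mean of these genes and also the highest *Cfb* and *C4b*, at 131 and 289.7 FPKM. The part of interferon in these levels was not tested.

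Beyond the 9 genes, 45 further complement genes were listed from general knowledge by their place in the cascade, and 26 of them passed the filter on low values. Of these, 22 had a log2 fold change above 0 (43.5% of all genes tested) and 4 below 0, with a median of 0.27. An unadjusted p under 0.05 was reached by 2 (3.35% of all genes), 3 did not overlap between the genotypes (8.8% of all genes), and 0 reached an adjusted p under 0.05 by limma. Over all 35 tested complement genes, 29 were above 0. Over the alternatives, in which 32 to 35 of them were tested, the lowest count was 25 of 34, without Armc5 flox replicate 1. The highest was 31 of 35, with quantile normalization.

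The 2 genes were terminal components, which build the pore of the membrane attack complex. *C6* had 75.5 and 45.9 FPKM in AdArmc5 KO replicates 1 and 2 and 59.1 FPKM in the library labelled AdArmc5 KO replicate 3, against 20.2, 35.3 and 38.9 FPKM in Armc5 flox replicates 1, 2 and 3. All libraries labelled AdArmc5 KO were above all Armc5 flox libraries, and the log2 fold change was 0.94 (standard error 0.30, unadjusted p = 0.018 and adjusted p = 0.98 from limma). *C8g* had 5.66 and 3.96 FPKM in AdArmc5 KO replicates 1 and 2 and 3.79 FPKM in the library labelled replicate 3, against 2.11, 3.45 and 1.21 FPKM in Armc5 flox replicates 1, 2 and 3, with a log2 fold change of 0.79 (standard error 0.29, unadjusted p = 0.032 and adjusted p = 0.98 from limma). With AdArmc5 KO replicate 1 left out, the unadjusted p of *C6* was 0.060 and that of *C8g* 0.098. Over all alternatives the unadjusted p was 0.0059 to 0.060 for *C6* and 0.0076 to 0.098 for *C8g*. The other subunits of the pore were hardly present. *Hc*, which encodes C5, reached at most 0.0826 FPKM, *C8a* at most 0.00735 FPKM and *C9* at most 0.335 FPKM, and *C8b* was listed at 0 in all libraries. *C7*, in contrast, had 25.6 and 116 FPKM in AdArmc5 KO replicates 1 and 2 and 86.5 FPKM in the library labelled replicate 3, against 136, 16.8 and 64.5 FPKM in Armc5 flox replicates 1, 2 and 3, with the highest values in the libraries that held *Foxj1*.

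Other components that start the cascade were present in fat. The C1q-associated proteases *C1ra* and *C1s1* had log2 fold changes of 0.22 and 0.15 and levels of 36.8 to 48.6 and 88.7 to 154 FPKM in the libraries labelled AdArmc5 KO, against 31.7 to 40.1 and 83.6 to 136 FPKM in Armc5 flox, where reads shared with the paralogs *C1rb* and *C1s2* leave the levels uncertain. *Fcna*, the ficolin of macrophages, was at 33.9 to 95.4 FPKM in the libraries labelled AdArmc5 KO and 22.6 to 93.0 FPKM in Armc5 flox, and the collectins *Colec11* and *Colec12* had log2 fold changes of 0.23 and 0.26. The liver collectins *Mbl1* and *Mbl2* were listed at 0 in all libraries and at most at 0.0275 FPKM. *Cfp*, which encodes properdin, the stabilizer of the alternative convertase, had a log2 fold change of 0.26. *Masp1*, a protease of the lectin pathway, was at 9.81 FPKM in the library labelled AdArmc5 KO replicate 3 and at 19.5 FPKM in Armc5 flox replicate 3, and at most at 1.11 FPKM elsewhere. These are also the libraries with the most *Akr1b7*, at 3122 and 17.4 FPKM, and the part of vas deferens tissue in *Masp1* was not tested.

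Of the 15 listed regulators, which restrain complement on host cells and in plasma, 9 were tested, 8 were above 0 (43.5% of all genes) and 1 was below 0. *Serping1*, the inhibitor of C1r and C1s, was the most abundant at 245 to 372 FPKM in the libraries labelled AdArmc5 KO and 218 to 302 FPKM in Armc5 flox, with a log2 fold change of 0.28. *Clu*, which encodes clusterin, was the tested regulator in which the genotypes did not overlap, at 73.4 to 96.9 FPKM in the libraries labelled AdArmc5 KO and 65.1 to 71.7 FPKM in Armc5 flox (log2 fold change 0.27, unadjusted p = 0.12 and adjusted p = 0.98 from limma). The membrane inhibitors *Cd55*, *Cd59a* and *Cr1l* had log2 fold changes of 0.60, 0.58 and 0.09, *Vtn* 0.09 and *Cd59b* −0.02. *Cfi*, the protease that inactivates C3b, was at 11.0 FPKM in AdArmc5 KO replicate 2 and 12.1 FPKM in Armc5 flox replicate 1 and at most at 0.312 FPKM elsewhere. *Susd4* behaved likewise, at 16.6 and 20.3 FPKM in these libraries and at most at 1.498 FPKM elsewhere, so that both genes went with *Foxj1*.

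Of 9 listed receptors, 8 were tested with *C3ar1* among them, and 6 of these were above 0 (43.5% of all genes). *C5ar1*, the receptor for C5a, had a log2 fold change of 0.60 and *C5ar2* 0.27. The subunits of the C3 receptors on leukocytes had 0.54 for *Itgam*, 1.40 for *Itgax* and 0.71 for *Itgb2*. *Itgax*, which encodes CD11c, was at 14.7 and 6.62 FPKM in AdArmc5 KO replicates 1 and 2 and 2.07 FPKM in the library labelled replicate 3, against 1.37, 3.77 and 0.759 FPKM in Armc5 flox replicates 1, 2 and 3 (unadjusted p = 0.073 and adjusted p = 0.98 from limma). Its log2 fold change was 0.84 once AdArmc5 KO replicate 1 was left out and 2.02 once the library labelled AdArmc5 KO replicate 3 was. *Vsig4*, the C3b receptor of resident macrophages, ran the other way, at 3.43 to 4.38 FPKM in the libraries labelled AdArmc5 KO and 3.72 to 6.49 FPKM in Armc5 flox, with a log2 fold change of −0.32 (unadjusted p = 0.16 and adjusted p = 0.98 from limma). *Cd93* had −0.05.

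**Figure D4:**
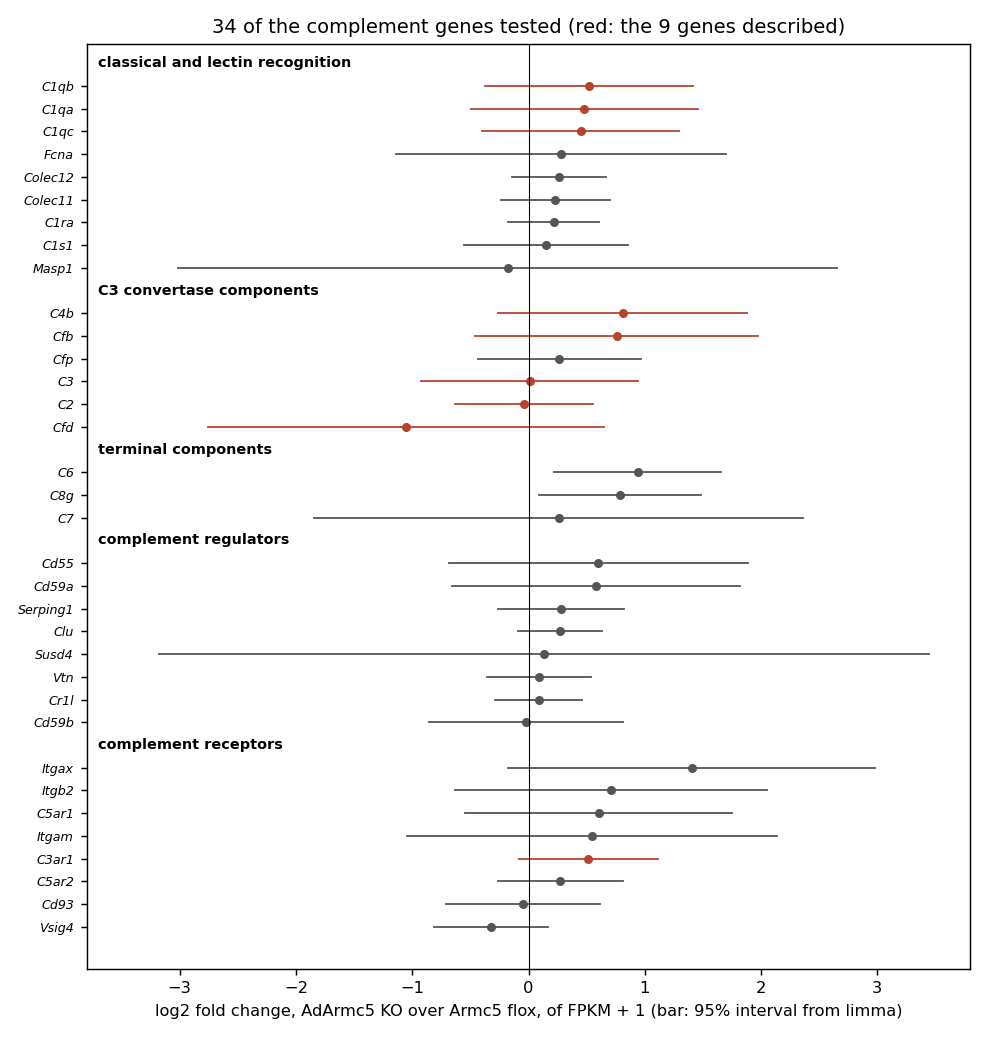
Log2 fold change of FPKM + 1 in the libraries labelled AdArmc5 KO over Armc5 flox for 34 of the 35 complement genes tested, by place in the cascade, with the 95% interval from limma. The 9 genes described here are red. Of the 34 points 28 lie above 0, and the intervals of C6 and C8g alone leave out 0.

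The genes whose pattern over the 6 libraries was most like that of a complement gene were named by Pearson's r of log2(FPKM + 1), among 12670 genes, as a description. For the mean of the C1q genes these were *Alox5ap*, *Cav1*, *Cdsn*, *Casp4* and *Dirc2* (r 0.996 to 0.999). *Alox5ap*, which encodes the activator of 5-lipoxygenase in leukocytes, had 60.0 and 39.4 FPKM in AdArmc5 KO replicates 1 and 2 and 32.2 FPKM in the library labelled replicate 3, against 23.8, 50.4 and 20.9 FPKM in Armc5 flox replicates 1, 2 and 3. For *Cfd* they were *H2-Ke6*, *Cbx1*, *Pcdhgc3*, *Asns* and *Zfp12* (r 0.986 to 0.992). *Asns*, which encodes asparagine synthetase, had 45.6 and 46.3 FPKM in AdArmc5 KO replicates 1 and 2 and 103 FPKM in the library labelled replicate 3, against 77.4, 60.8 and 125 FPKM in Armc5 flox replicates 1, 2 and 3. For *C3* they were *Gm14305*, *Sema6d*, *Aplnr*, *Mmachc* and *AI314180* (r 0.988 to 0.997), and for *Cfb* *Ubap2*, *Pdia6*, *Ppapdc1b*, *Plp2* and *Fam217a* (r 0.996 to 0.998). With 6 libraries such values are common, as 155 genes had r over 0.95 with the C1q genes, 93 with *Cfd*, 50 with *C3* and 197 with *Cfb*.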

How the data were processed

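Polyadenylated RNA of epididymal WAT was sequenced from 3 AdArmc5 KO and 3 Armc5 flox. Alignment to mm10 by the authors used TopHat2 (2.0.13), Bowtie2 (2.2.3) and SAMtools (0.1.19). The authors deposited FPKM made with Cuffnorm (2.2.1). They also deposited normalized counts, a signal scaled by a factor for each library, used for depth and as an alternative. The gene annotation and the counting options are not stated in those sources. The authors' fold changes and p-values, and 6 columns of processed log2 values, were not used. Of the normalized counts above 0, 98.7% to 99.0% were whole multiples of 1 fragment within 0.1, short of what a count model needs, so none was fitted.

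A gene was tested where 3 or more libraries reached 1 FPKM (12670 genes), as log2(FPKM + 1) with limma (3.58.1, R 4.3.3), genotype only, with a mean-variance trend and Benjamini-Hochberg adjustment, after a check on simulated data. A fold on this scale understates that of low genes. An exact permutation test of 3 against 3 cannot go below 0.1 and was not used. Members and lists were chosen with earlier results of these data known. The genes named are the 9 members, *Armc5*, tested genes of 5 complement lists, up to 3 abundant genes of a marker list, and the 5 genes of highest r for each of 4 profiles. The values of 1 listed gene are not reported here. Genes named beyond these were chosen after their values were seen. Among the other marker lists, the median log2 fold change was −0.84 for 7 mesothelial genes, −0.13 for 8 endothelial, −0.29 for 4 neutrophil, 0.38 for 3 hepatocyte and 0.02 for 2 ciliated cell genes, and 2.10 for 1 gene of vas deferens. Coordinates and promoters came from RefSeq on GRCm38.p6 by NCBI Gene ID.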

Additional observations from a re-analysis of the deposited data

How the results depend on the processing

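Over 16 alternatives in processing, the log2 fold changes of *C1qa*, *C1qb*, *C1qc*, *C3ar1*, *C4b*, *Cfb* and *Cfd* kept their sign, and those of *C2* and *C3*, which lay near 0, did not. The count of genes called at an adjusted p under 0.05 by limma stayed at 0 in all of them. The log2 fold change of *C3* was −0.018 with factors from the trimmed mean of M values and −0.046 without both Armc5 flox replicate 1 and AdArmc5 KO replicate 2. That of *C2* was 2.7e-05 with quantile normalization. With single libraries left out, *C2* lay between −0.28 and 0.13 and *C3* between −0.33 and 0.29. The others lay between 0.24 and 0.90 (*C1qa*), 0.27 and 0.88 (*C1qb*), 0.24 and 0.80 (*C1qc*), 0.33 and 0.73 (*C3ar1*), 0.49 and 1.18 (*C4b*), 0.41 and 1.23 (*Cfb*) and −1.73 and −0.63 (*Cfd*). The number of genes at an unadjusted p under 0.05 was 863 without the filter, where 24346 genes were tested, and 261 to 634 with single libraries left out, against 425. The cause of the changes with single libraries was not tested. The count of tested complement genes above 0, an alternative chosen after seeing the data, was 25 of 34 at the lowest and 31 of 35 at the highest.

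With the replicate number as a block, 575 genes had an unadjusted p under 0.05 and 0 an adjusted p under 0.05. The replicate numbers were not taken as pairs in the main test, since nothing in the labels ties a number to a litter. The deviations of same-numbered libraries from their group means correlated at −0.53, −0.41 and 0.58 for numbers 1, 2 and 3. The highest correlation, 0.75, was between AdArmc5 KO replicate 2 and Armc5 flox replicate 1, the libraries with *Foxj1*. These correlations cannot decide a pairing by litter, because they hold every other difference between libraries too. The quasi-likelihood test on counts was not run, because whole fragments were not recovered for all genes. With 3 libraries per genotype, no permutation of single values could pass 0.05.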
